A study of Rattus norvegicus with 18 samples.

Results

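The cell cycle genes of dividing cells are 42 rat genes whose products copy the DNA, pull the chromosomes apart or mark a cell that is in the cycle. They were read from the probe sets that carry exactly 1 of the 42 symbols, with 1 probe set per gene, the one with the highest mean over all arrays. Of the 42 genes, 40 were measured, among 14217 named genes and 31042 probe sets in all. Tpx2 and Rrm2 were not analysed here. The arrays came from rat hippocampal neurons in dissociated culture. A lentivirus was given on day 3 in culture, and 4-hydroxytamoxifen (4OHT), a ligand for the receptor part of both constructs, was applied on day 10. The control virus carried MEF2deltaDBD-VP16-ER, a fusion without the DNA-binding domain. The other virus carried MEF2-VP16-ER, the transcription factor MEF2 joined to the VP16 activation domain and to the ligand-binding domain of the estrogen receptor. Each construct was followed for 0, 1 and 2.5 h of 4OHT, which makes 6 groups of 3 arrays, 18 in all. The arrays of a group are biological replicates 1, 2 and 3 by their titles. All groups, controls included, had received a virus and a fusion protein with VP16, and the sources used here name no untransduced group and no promoter that drives the constructs.

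A mature neuron has left the cell cycle for good, so in a hippocampal culture messages of the division machinery come mainly from the other cells that grow among the neurons, such as astrocytes and oligodendrocyte precursors. In a cycling cell E2F factors switch on the replication genes before DNA synthesis, and the mitotic genes follow in G2 through promoters with CCAAT boxes and a CHR element. Both classes are repressed together when a cell leaves the cycle.

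Values are the intensities the authors deposited, on a linear scale, and differences are in log2(intensity + 16), where the added 16 makes the change of dim genes look smaller than it is. Array medians ranged from 190.4 to 197. Each difference has its standard error (SE) from 1 limma fit over all 31042 probe sets, with 6 group means and the replicate number as a block. A gene is said to be higher or lower, or to have risen or fallen, where its p, adjusted over the whole array, was under 0.05. The neuronal label held on every array, with Map2 (the gene of a dendrite protein) between 11759 and 13892 and Syn1 (synapsin) between 2727 and 3671. Glial transcripts were there too: Gfap, the astrocyte filament gene, lay between 3962 and 13336, and Pdgfra, the receptor gene of oligodendrocyte precursors, between 935 and 6459. RNA was bulk, so that more dividing cells and more RNA per dividing cell cannot be told apart.

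Replicate 3 stood apart from replicates 1 and 2 in nearly every cell cycle gene. Of the 40 genes, 38 differed between replicate numbers, against 29.6% of all probe sets, and all 38 were higher in replicate 3 than in replicate 1 and than in replicate 2. The median difference of the 40 genes from replicate 1 was 0.75 log2 units (0.0048 over all probe sets), from 0.0033 for Traip to 2.06 for Ccna2. From replicate 2 it was 0.67 (-0.0023 over all probe sets). Higher calls made up 13.6% of all probe sets in the comparison of replicate 3 with 1 and 11.9% in that of 3 with 2, out of 28.1% and 21.2% called in either direction. Replicates 1 and 2 differed in 0 of the 40 genes by limma (4 at an unadjusted p under 0.05), where 7.05% of all probe sets were called. With a median of 0.08, replicate 2 was above replicate 1 in 34 of 40.

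The groups did not overlap in most genes. In 31 of 40 the 6 arrays of replicate 3 lay above all 12 others, as in 2.97% of all probe sets. In 34 of 40 replicate 3 was the highest of its group in all 6 groups, as in 7.01% of all probe sets. Of the variation inside the 6 groups, the replicate number held a median of 89.5% in the cell cycle genes and of 31.9% over all probe sets. Whether the number stands for a culture, an RNA preparation or a round of arrays cannot be told apart here. The 6 arrays of a number may share a culture, so these p-values measure only the spread between these arrays. Without the 6 arrays of replicate 3, 0 of the 40 genes differed between the remaining numbers.

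**Figure D1:**
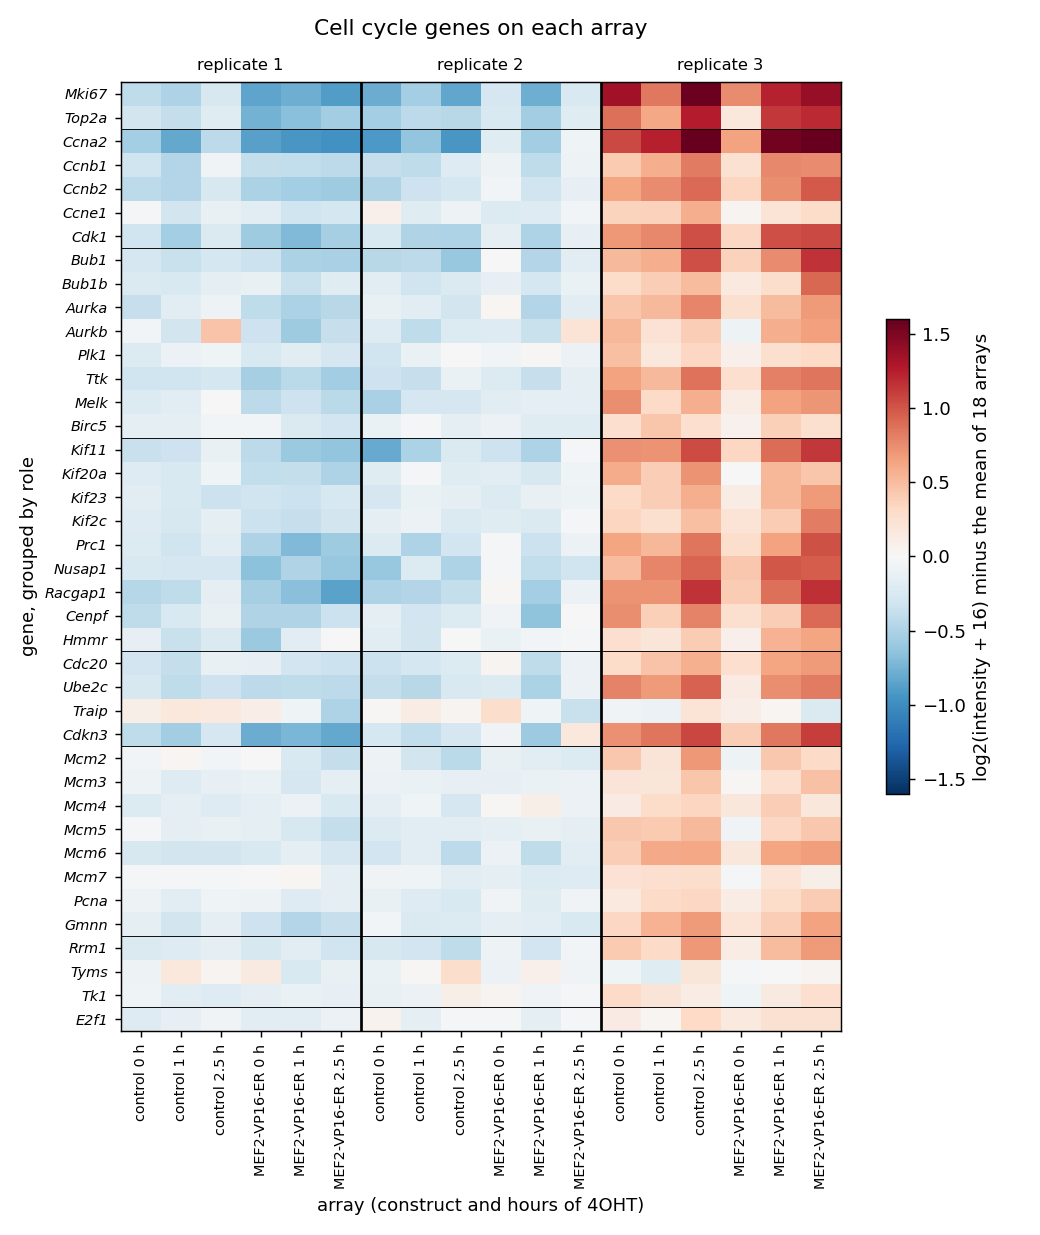
Each row is 1 of the 40 cell cycle genes, grouped by role, and each column 1 of the 18 arrays, ordered by replicate number. The colour is log2(intensity + 16) minus the gene's mean over the 18 arrays. The columns of replicate 3 are above the mean in nearly all rows, most in Ccna2 and Mki67. The array of MEF2-VP16-ER at 0 h is the palest of replicate 3, and the rows of Traip and Tyms show no such block.

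Mki67, with the second largest difference of the 40 genes from replicate 1, encodes a nuclear protein of cycling cells that resting cells lack. Per-array values are given in the order of replicates 1, 2 and 3. Mki67 read 174, 130.3 and 625 in control neurons at 0 h, 163, 157 and 439 at 1 h and 195, 126 and 730.5 at 2.5 h. With MEF2-VP16-ER it read 125, 194 and 411 at 0 h, 131, 131 and 578 at 1 h and 121, 198 and 647 at 2.5 h. The lowest array of replicate 3 (411) was above the highest of the others (198). The difference from replicate 1 was 1.80 ± 0.15 (SE, 6 arrays each, fold 3.49, adjusted p = 7.05e-07) and from replicate 2 it was 1.77 ± 0.15 (fold 3.40, adjusted p = 4.05e-06).

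Top2a encodes the topoisomerase that untangles the copied chromatids. Top2a read 498, 416 and 1145 in control neurons at 0 h, 467, 455 and 946 at 1 h and 532, 447 and 1483 at 2.5 h. In MEF2-VP16-ER neurons the readings were 355, 516 and 693 at 0 h, 381, 413 and 1357 at 1 h and 411, 535 and 1418 at 2.5 h. Again no array of replicates 1 and 2 reached replicate 3, but the gap was small at 0 h with MEF2-VP16-ER. Replicate 3 was higher than 1 by 1.35 ± 0.13 (fold 2.55, adjusted p = 3.09e-06). A further probe set of Top2a gave 0.74 ± 0.09 (adjusted p = 1.90e-05).

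Cyclins and their kinase were higher in replicate 3 in 5 of 5 genes. Cdk1 is the kinase that drives entry into mitosis, and cyclins B1 and B2 (Ccnb1, Ccnb2) are its partners there. Cdk1 read 394, 413 and 811 in control neurons at 0 h, 336, 348 and 852 at 1 h and 420.4, 347 and 1029 at 2.5 h. With MEF2-VP16-ER the intensities were 329, 442 and 629 at 0 h, 296, 345 and 1026 at 1 h and 337, 451 and 1042 at 2.5 h. The lowest value of replicate 3 (629) was above the highest of the others (451), with a difference of 1.30 ± 0.11 from replicate 1 (fold 2.46, adjusted p = 8.85e-07).

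Ccnb1 read 289, 280.1 and 497 in control neurons at 0 h, 259.6, 273 and 555 at 1 h and 353, 314 and 661 at 2.5 h. Under MEF2-VP16-ER, Ccnb1 was at 277, 345 and 436 at 0 h, 274, 273 and 634 at 1 h and 271, 345 and 627 at 2.5 h. The replicate 3 values were the highest in each group, by 0.94 ± 0.09 over replicate 1 (fold 1.92, adjusted p = 1.37e-06). A second probe set of Ccnb1 differed by 0.95. Ccnb2 read 148, 141 and 323 in control neurons at 0 h, 143, 159 and 355 at 1 h and 168, 165 and 397 at 2.5 h. Under MEF2-VP16-ER, Ccnb2 was at 138, 197 and 262 at 0 h, 134, 160.0 and 351 at 1 h and 132, 185 and 416 at 2.5 h. Its difference from replicate 1 was 1.19 ± 0.09 (fold 2.28, adjusted p = 2.76e-07), and no array of replicates 1 and 2 reached replicate 3.

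Cyclin A2 (Ccna2), which acts from S phase to early mitosis, had the largest difference of the 40 genes. Ccna2 read 94.9, 68.9 and 317 in control neurons at 0 h, 75.5, 88.3 and 364 at 1 h and 104, 68.7 and 481 at 2.5 h. With the active construct it was at 72.4, 125 and 235 at 0 h, 68.6, 93.6 and 452 at 1 h and 66.6, 137 and 517 at 2.5 h. Replicate 3 was above all other arrays, by 2.06 ± 0.18 over replicate 1 (fold 4.17, adjusted p = 9.49e-07) and 1.85 ± 0.18 over replicate 2. Cyclin E1 (Ccne1), which acts at the start of S phase, differed least of this group, by 0.51 ± 0.06 from replicate 1 (adjusted p = 9.09e-06), and its replicate 3 values (220.2 to 327) overlapped those of replicate 2 (181 to 227).

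Mitotic kinases and proteins of the spindle checkpoint, which holds a cell in mitosis until all chromosomes are attached, were higher in replicate 3 in 8 of 8 genes. Their median difference from replicate 1 was 0.71. Ttk, the kinase that starts the checkpoint, had the smallest p of all 40 genes between replicate numbers. Ttk read 109.8, 108 and 229 in control neurons at 0 h, 109.5, 105 and 207 at 1 h and 113, 129.6 and 269 at 2.5 h. With MEF2-VP16-ER the values of Ttk were 91.9, 119 and 173 at 0 h, 99.6, 105 and 258 at 1 h and 90.6, 126 and 266 at 2.5 h. No array of replicates 1 and 2 was above 129.6, and none of replicate 3 was below 173. The difference from replicate 1 was 1.06 ± 0.08 (fold 2.09, adjusted p = 2.36e-07). A further probe set of Ttk gave 0.15 (adjusted p = 0.0133).

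In the checkpoint genes Bub1 and Bub1b the arrays of replicate 3 were likewise above all others. Bub1 lay between 198 and 353 in replicate 3 and between 93.1 and 149 in the other arrays. Bub1b lay between 90.2 and 165 against 58.3 to 72.4. Aurora kinase A (Aurka), of the spindle poles, differed by 0.86 ± 0.09 from replicate 1 and Melk by 0.78 ± 0.10. Polo-like kinase 1 (Plk1) by 0.46 ± 0.07 and survivin (Birc5), the partner of Aurora B at the centromere, by 0.43 ± 0.06 differed less, still without overlap. Aurora kinase B (Aurkb) had overlapping values: 153 to 264 in replicate 3, 118 to 191 in replicate 2 and 104 to 227 in replicate 1, with a difference of 0.58 ± 0.13 (adjusted p = 0.00361).

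Kinesins and spindle proteins were higher in replicate 3 in 9 of 9 genes, with a median difference of 0.93 from replicate 1 and no overlap in any of them. Racgap1, which places the cleavage furrow, differed by 1.36 ± 0.13 and went from 199 to 376 over replicates 1 and 2 to between 500.4 and 855 in replicate 3. Kif11, the motor that separates the spindle poles, differed by 1.22 ± 0.12, Nusap1, a microtubule-bundling protein, by 1.19 ± 0.12, and Prc1, which crosslinks the central spindle, by 1.07 ± 0.11. The kinetochore gene Cenpf differed by 0.93 ± 0.09. The cytokinesis motors Kif20a (0.75 ± 0.08) and Kif23 (0.72 ± 0.06) and the microtubule depolymerase Kif2c (0.69 ± 0.07) lay below these. Hmmr, whose product binds hyaluronan and spindle microtubules, was the smallest at 0.60 ± 0.06 (adjusted p = 3.83e-06). Further probe sets differed by 0.07 for Kif23 (adjusted p = 0.273), 0.88 for Racgap1 and 1.11 for Nusap1. Of 16 further probe sets of 12 of the 40 genes, 12 were higher in replicate 3 than in 1 (13.6% of all probe sets) and all 16 were above 0. Against replicate 2, 10 were higher (11.9% of all probe sets) and 15 were above 0.

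Among genes of protein turnover and of CDK control, Cdc20, Ube2c and Cdkn3 were higher in replicate 3 and Traip was not. Ube2c is the ubiquitin-conjugating enzyme of the anaphase-promoting complex, and Cdc20 is the activator of that complex. Ube2c read 265, 243 and 569 in control neurons at 0 h, 239, 232 and 523 at 1 h and 252, 267 and 632 at 2.5 h. With MEF2-VP16-ER the values of Ube2c were 237, 272 and 354 at 0 h, 237, 221 and 548 at 1 h and 236, 299 and 581 at 2.5 h. Replicates 1 and 2 lay within 221 to 299, so that replicate 3 was above them on every array, by 1.06 ± 0.09 over replicate 1 (fold 2.09, adjusted p = 9.68e-07). Cdkn3, a phosphatase that acts on CDKs, differed by 1.43 ± 0.12 (adjusted p = 7.09e-07) and Cdc20 by 0.75 ± 0.08. Traip, a ubiquitin ligase that works at replication forks, differed by 0.0033 ± 0.06 from replicate 1 (95% interval -0.12 to 0.13, adjusted p = 0.979).

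Replication genes were higher in replicate 3 too, by less. All 6 measured subunits of the MCM helicase (Mcm2 to Mcm7), the clamp Pcna and geminin (Gmnn), which keeps origins from firing again, were called, with a median of 0.44. Mcm2 read 395, 385 and 555 in control neurons at 0 h, 418, 329 and 471 at 1 h and 396, 299 and 667 at 2.5 h. With MEF2-VP16-ER its intensities were 408, 373 and 386 at 0 h, 342, 356 and 554 at 1 h and 309.6, 349 and 509 at 2.5 h. At 0 h with MEF2-VP16-ER, Mcm2 was no higher in replicate 3 than in replicate 1. The difference over all groups was 0.44 ± 0.10 (fold 1.36, adjusted p = 0.00430).

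Pcna read 3770.1, 3689.5 and 4464 in control neurons at 0 h, 3538, 3466 and 4931 at 1 h and 3819, 3376 and 5022 at 2.5 h. With MEF2-VP16-ER, Pcna was at 3791, 3832 and 4332 at 0 h, 3472, 3503 and 4894 at 1 h and 3622, 3852 and 5315 at 2.5 h. No array of replicates 1 and 2 reached the lowest of replicate 3, and the difference from replicate 1 was 0.39 ± 0.05 (fold 1.31, adjusted p = 3.93e-05). Mcm6 had the largest difference of the helicase, 0.77 ± 0.08, and Mcm7 the smallest, 0.21 ± 0.05 (adjusted p = 0.00365). Gmnn differed by 0.76 ± 0.07, and a further, dimmer probe set of Gmnn by 0.04 (adjusted p = 0.629).

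Of the enzymes that supply DNA precursors, Rrm1, the large subunit of ribonucleotide reductase, differed by 0.68 ± 0.09 and the thymidine kinase Tk1 by 0.30 ± 0.06. Further probe sets of Tk1 gave 0.44 (adjusted p = 3.16e-05) and 0.03 (adjusted p = 0.781). Thymidylate synthase (Tyms) did not differ, with 87 to 121 in replicate 1, 97.1 to 132 in replicate 2 and 90.5 to 124 in replicate 3 (difference 0.0047 ± 0.07, adjusted p = 0.974). The transcription factor gene E2f1 read 425, 510.2 and 539 in control neurons at 0 h, 449, 443 and 504 at 1 h and 472, 479 and 618 at 2.5 h. With MEF2-VP16-ER, E2f1 was at 432, 487 and 548 at 0 h, 437, 444 and 584 at 1 h and 459, 487 and 587 at 2.5 h. Replicate 3 was the highest in each group, by 0.32 ± 0.04 over replicate 1 (fold 1.25, adjusted p = 5.25e-05), though its lowest value was under the highest of replicate 2.

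**Figure D2:**
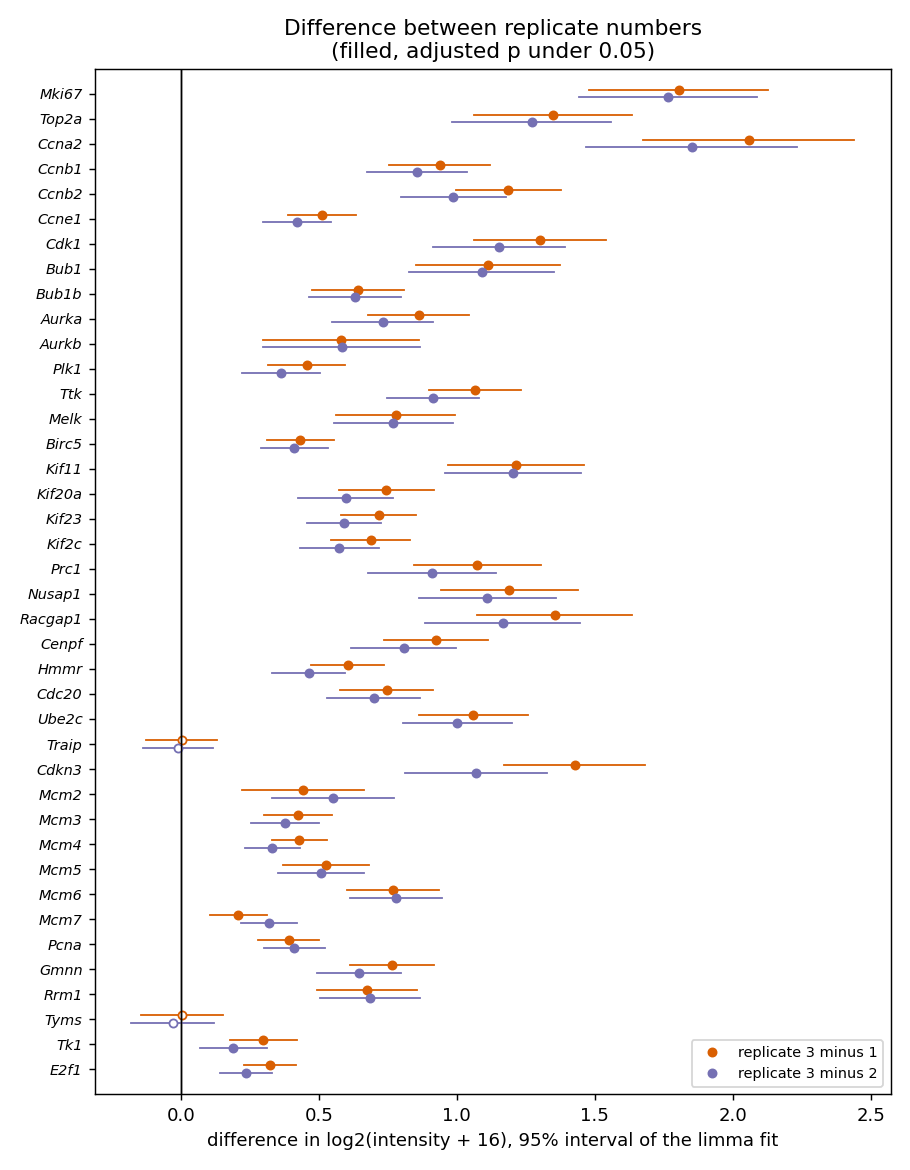
Points are the limma differences of replicate 3 from replicate 1 (orange) and from replicate 2 (purple) in log2(intensity + 16) for each of the 40 genes, with 95% intervals; filled points have an adjusted p under 0.05. Ccna2 (2.06 from replicate 1) and Mki67 (1.80) lie farthest to the right, followed by Cdkn3 (1.43), Racgap1 (1.36) and Top2a (1.35), and Traip and Tyms lie at 0.

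Markers of glia and progenitors moved with the replicate number as well. Against replicate 1, 13.6% of all probe sets were higher and 28.1% were called in either direction. Against replicate 2 these shares were 11.9% and 21.2%. Of 12 measured oligodendrocyte and precursor markers, 7 were higher and 0 lower in replicate 3 than in 1, and the same counts held against 2. Pdgfra differed by 1.80 ± 0.22 from replicate 1 and 1.37 ± 0.22 from replicate 2, and Cnp, a gene of myelinating cells and their precursors, by 1.04 ± 0.11 and 1.06 ± 0.11. Over the whole list the mean deviation from the 18-array mean lay between 0.14 and 0.33 log2 units in replicate 3 and between -0.32 and 0.01 in the other arrays. The summed intensity of the list was 14035 to 18727 in replicate 3 and 8392 to 12388 in the others. Of 11 progenitor markers, 8 were higher and 1 (Vim) lower than in replicate 1, and 5 higher and 1 lower than in replicate 2. Notch1, a receptor gene of progenitors and glia, differed by 0.78 and 0.89. Of 11 astrocyte markers, 3 were higher and 5 lower than in replicate 1, and 7 higher and 1 lower than in replicate 2. Gfap was lower, by -1.41 ± 0.07 and -0.93 ± 0.07, the second against the direction of most of its list. The mean deviation of the astrocyte list lay between -0.03 and 0.12 in replicate 3. It lay between 0.05 and 0.22 in replicate 1 and between -0.25 and -0.11 in replicate 2.

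Markers of microglia were lower in 6 of 14 and higher in 0 against replicate 1, and lower in 4 and higher in 0 against replicate 2. In these comparisons 28.1% and 21.2% of all probe sets were called in either direction, and 13.6% and 11.9% were higher. Fibroblast and pericyte markers were lower in 4 and higher in 2 of 14 against replicate 1, and lower in 5 and higher in 1 against replicate 2. For the 11 endothelial markers the counts were 0 and 0 in both comparisons by limma, with 2 at an unadjusted p under 0.05 in each. Of 16 neuron markers, 6 were lower and 1 (Tubb3) higher than in replicate 1, and 7 lower and 1 higher than in replicate 2. The part of these cell types in the difference of the cell cycle genes was not tested.

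**Figure D3:**
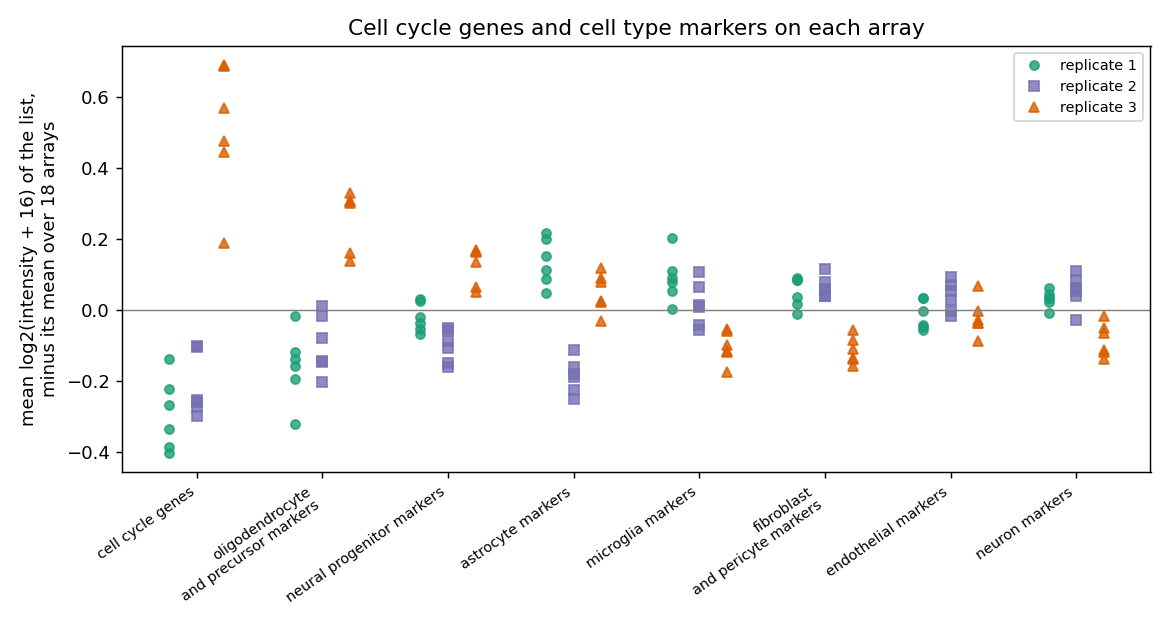
Each point is 1 array, and its height is the mean log2(intensity + 16) over a list of genes minus that list's mean over the 18 arrays. Replicate 3 (triangles) lies from 0.19 to 0.69 in the cell cycle genes and from 0.14 to 0.33 in the oligodendrocyte and precursor markers, while it lies from -0.14 to -0.02 in neuron markers, from -0.18 to -0.05 in microglia markers and from -0.16 to -0.06 in fibroblast and pericyte markers.

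Mitotic and replication genes outside the 40 mostly moved in the same direction between replicate numbers, and cyclins and CDK inhibitors less so. Of all probe sets 13.6% were higher and 28.1% called in either direction against replicate 1, and 11.9% and 21.2% against replicate 2. Of 55 other mitotic genes measured, 47 were higher and 1 lower in replicate 3 than in 1, and 45 higher and 0 lower than in 2 (medians 0.51 and 0.44). Cks2, a small CDK-binding protein, differed by 1.39 ± 0.11 from replicate 1, Ect2, the activator of the cytokinesis GTPase, by 1.35 ± 0.13, the kinetochore gene Spc25 by 1.25 ± 0.11 and Cdca3 by 1.21 ± 0.10. Of 51 other replication genes, 36 were higher and 4 lower than in replicate 1, and 37 and 0 than in replicate 2. Uhrf1, which maintains DNA methylation at the fork, differed by 1.15 ± 0.11 and the origin-firing factor Gins1 by 0.79 ± 0.11. Cyclins, CDKs and pocket proteins were higher in 15 and lower in 4 of 33 in both comparisons, with Cdk2 at 0.65 ± 0.06. CDK inhibitors and brakes were higher in 6 and lower in 2 of 18 against replicate 1, and higher in 4 and lower in 2 against replicate 2. Cdkn1c (p57), a CDK inhibitor, had the largest difference of that list, 2.57 ± 0.26 from replicate 1 and 2.41 ± 0.26 from replicate 2.

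Because the genes differed together, their promoters were read for the letters known from cell cycle promoters. RefSeq (build GRCr8) gave windows for 33 of the 40 genes, 35 windows in all. The 250 bases before each start were searched on both strands, against 33469 windows of the same length from all genes. The promoters of Mki67, Top2a, Cdk1 and Ccnb2, from the mitotic side, and of Mcm6, from the replication side, are shown because these genes carried large differences and differ in their letters. Capitals mark the CCAAT box, the CHR letters and the E2F letters on either strand. The CHR was searched as TTTGAA, as well as TTCGAA, as well as TTTAAA. E2F was searched as TTTCCCGC, as well as TTTGGCGC, as well as TTTCGCGC, as well as TTTGCCGC. Mki67 lies on chr1:199952594-199952843 (minus strand), Top2a on chr10:84473094-84473343 (minus), Cdk1 on chr20:19265043-19265292 (plus), Ccnb2 on chr8:79981659-79981908 (minus) and Mcm6 on chr13:42404353-42404602 (minus).
Mki67: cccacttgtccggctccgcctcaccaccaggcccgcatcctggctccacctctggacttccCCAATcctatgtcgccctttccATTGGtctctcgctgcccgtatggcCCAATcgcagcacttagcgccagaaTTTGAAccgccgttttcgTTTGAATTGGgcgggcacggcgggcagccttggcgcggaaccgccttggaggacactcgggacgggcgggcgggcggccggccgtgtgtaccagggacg
Top2a: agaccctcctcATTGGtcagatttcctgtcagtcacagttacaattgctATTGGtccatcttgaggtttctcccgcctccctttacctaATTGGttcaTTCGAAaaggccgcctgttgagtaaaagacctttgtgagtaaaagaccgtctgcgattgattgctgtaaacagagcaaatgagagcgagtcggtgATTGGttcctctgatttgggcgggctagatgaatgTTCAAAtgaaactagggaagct
Cdk1: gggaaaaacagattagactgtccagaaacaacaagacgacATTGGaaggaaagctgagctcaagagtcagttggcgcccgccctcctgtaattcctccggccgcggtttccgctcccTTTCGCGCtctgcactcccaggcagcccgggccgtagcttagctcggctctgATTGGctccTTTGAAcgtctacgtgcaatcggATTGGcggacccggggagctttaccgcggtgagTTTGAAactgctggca
Ccnb2: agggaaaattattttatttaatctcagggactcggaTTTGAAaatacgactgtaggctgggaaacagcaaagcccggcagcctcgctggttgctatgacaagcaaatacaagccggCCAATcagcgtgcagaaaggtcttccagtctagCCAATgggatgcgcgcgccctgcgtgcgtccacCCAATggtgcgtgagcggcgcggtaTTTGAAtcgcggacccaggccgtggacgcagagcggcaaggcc
Mcm6: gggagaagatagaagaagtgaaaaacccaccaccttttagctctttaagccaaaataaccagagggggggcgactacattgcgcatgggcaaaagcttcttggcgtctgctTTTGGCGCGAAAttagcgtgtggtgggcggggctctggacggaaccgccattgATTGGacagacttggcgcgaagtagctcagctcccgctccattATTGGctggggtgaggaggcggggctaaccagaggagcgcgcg

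Mki67 and Top2a each held 4 CCAAT boxes and 2 CHR matches and no E2F match. In Mki67 a CHR match and a CCAAT box overlap by 1 base. Cdk1 held 3 CCAAT boxes, 2 CHR matches and 1 E2F match, and Ccnb2 3 CCAAT boxes and 2 CHR matches. Mcm6 held 2 CCAAT boxes, no CHR match and 2 E2F matches that overlap each other.

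CCAAT letters were in 25 of the 35 windows (71.4%, against 34% of all windows) and CHR letters also in 25 (71.4%, against 26.5%). Both occurred in 19 (54.3%, against 9.43%), and 2 or more CCAAT boxes in 18 (51.4%, against 9.42%). E2F letters were in 6 (17.1%, against 1.73%), all in different genes: Cdk1, Mcm2, Mcm5, Mcm6, Mcm7 and Tyms. Tyms, which did not differ between replicate numbers, thus had E2F letters, and Mcm3, which differed, had a window without them. The MEF2 consensus was in 1 window, that of Hmmr (2.86%, against 2.96% of all windows). Overlapping pairs of matches, of the same motif or of different ones, numbered 5 in these windows. Ube2c, Ccna2, Racgap1, E2f1, Mcm4, Traip and Aurkb had no window in the table. These matches are letters in a window and not shown to be bound.

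The comparison the study was built for asked what MEF2-VP16-ER did once 4OHT was added. Of the 40 cell cycle genes, 1 changed across the 6 groups (Traip, adjusted p = 0.0128), against 2.72% of all probe sets. That count was 0 without replicate 1, without replicate 2, and without the MEF2-VP16-ER array of replicate 1 or 2 at 2.5 h. In MEF2-VP16-ER neurons 2 of 40 changed from 0 h to 2.5 h, Traip downward and Hmmr upward, against 2.33% of all probe sets (1.33% higher and 0.999% lower). Beyond the change in control neurons, that is in the 2.5 h change with MEF2-VP16-ER minus that in control neurons (the induction at 2.5 h), 1 of 40 changed, Traip, against 0.937% (0.374% lower). Counts of 1 or 2 genes are too few to read as a result about the 40 genes.

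Traip fell with MEF2-VP16-ER. Traip read 262, 249 and 236 in control neurons at 0 h, 279, 269 and 229.7 at 1 h and 275, 253 and 288 at 2.5 h. With MEF2-VP16-ER it read 265, 303 and 266 at 0 h, 234, 232 and 251 at 1 h and 170.3, 188 and 208 at 2.5 h. The 3 arrays of MEF2-VP16-ER at 2.5 h were below all other arrays, and at 1 h each was below the 0 h array of its own number. The mean went from 278 ± 21.6 (SD, n = 3) at 0 h to 239 ± 10.5 at 1 h and 188 ± 18.6 at 2.5 h, against 249 ± 12.9, 259 ± 26 and 272 ± 17.6 in control neurons. From 0 h to 2.5 h it fell by 0.53 ± 0.08 log2 units in MEF2-VP16-ER neurons (SE, 1.44-fold lower, limma adjusted p = 0.00200), and by 0.60, 0.65 and 0.33 within replicates 1, 2 and 3.

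In control neurons the change of Traip was 0.12 ± 0.08 (adjusted p = 0.999), and the difference of both, the induction, was -0.64 ± 0.12 (95% interval -0.90 to -0.39, adjusted p = 0.0134). Within replicates 1, 2 and 3 the induction was -0.66, -0.67 and -0.60. At 2.5 h alone MEF2-VP16-ER neurons were lower than control neurons by -0.50 ± 0.08 (adjusted p = 0.00240, where 1.03% of all probe sets were lower). At 1 h the change was -0.20 ± 0.08 (adjusted p = 0.544) and the induction -0.25 ± 0.12 (adjusted p = 0.590). The call on the induction was lost without replicate 1 (adjusted p = 0.135), replicate 2 (0.235), replicate 3 (0.0571) or the control 0 h array of replicate 3 (0.0513), and that on the change in MEF2-VP16-ER neurons without replicate 2 (0.112). In those fits Traip changed by -0.66 to -0.46.

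Hmmr rose in MEF2-VP16-ER neurons, a call that was lost without the replicate block. Hmmr read 111, 107 and 153 in control neurons at 0 h, 92.6, 97.6 and 143 at 1 h and 102, 124 and 168 at 2.5 h. With MEF2-VP16-ER it read 76.4, 114 and 131 at 0 h, 107, 119 and 189 at 1 h and 124, 120.4 and 199.6 at 2.5 h. The groups overlapped: replicate 3 at 0 h (131) was above replicates 1 (124) and 2 (120.4) at 2.5 h. The change at 2.5 h was 0.41 ± 0.09 (fold 1.33, adjusted p = 0.0176), made of 0.60, 0.07 and 0.55 in replicates 1, 2 and 3. Without the block its adjusted p was 1.00. With the mean over both probe sets of Hmmr the change was 0.28 (adjusted p = 0.0889), and the other probe set alone gave 0.14 ± 0.10 (adjusted p = 0.758). The call was also lost without replicate 1 (adjusted p = 0.222) or 3 (0.427), and without the MEF2-VP16-ER arrays of replicate 1 or 3 at 0 h (0.127 and 0.115) or at 2.5 h (0.0717 and 0.121). The induction of Hmmr at 2.5 h was 0.34 ± 0.12 (adjusted p = 0.368).

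**Figure D4:**
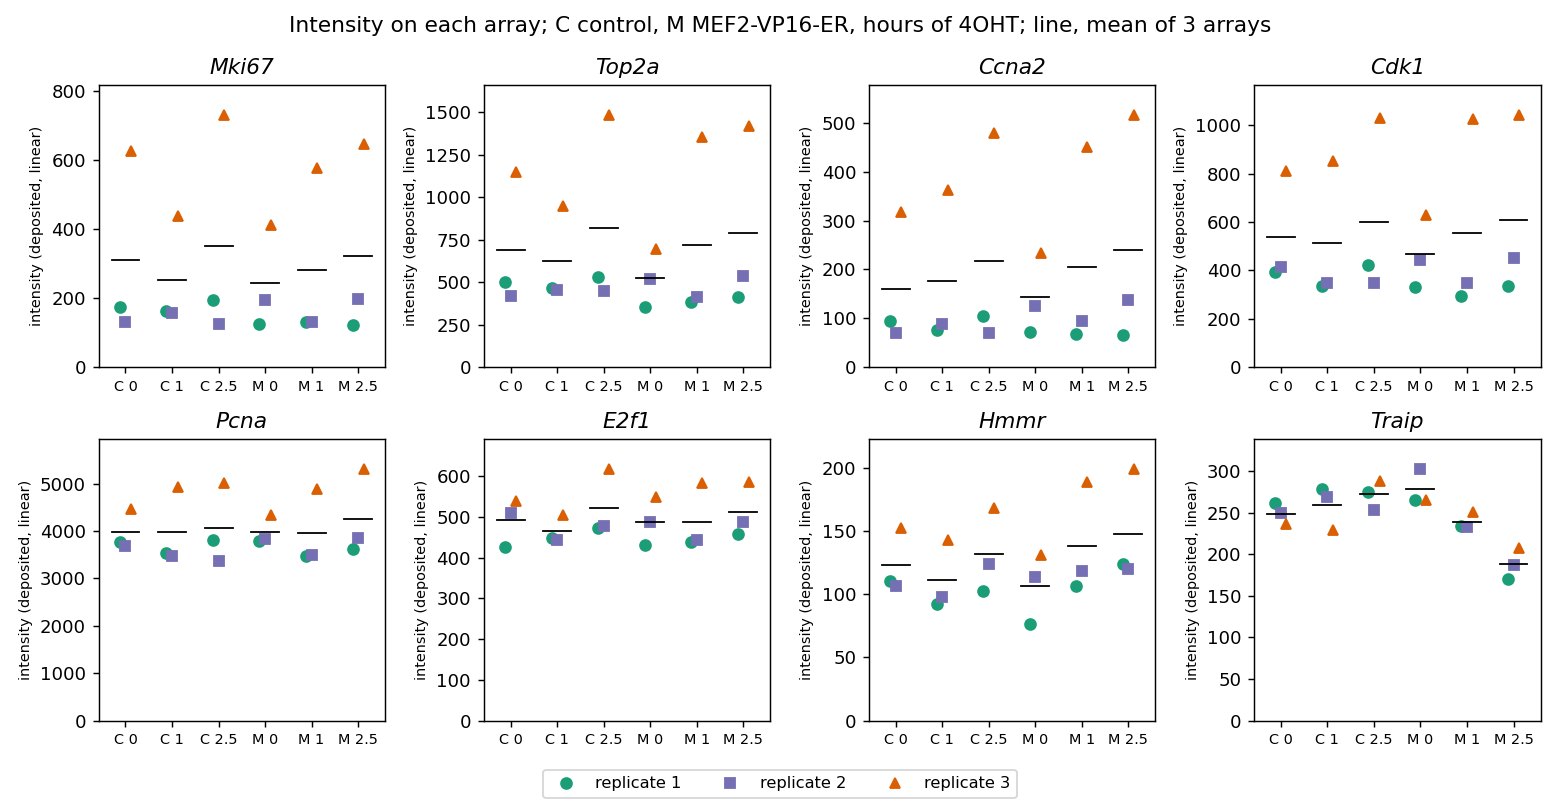
Deposited intensity (linear axis from 0) of 8 genes on each of the 18 arrays, by group; markers show the replicate number and black lines the mean of the 3 arrays. In Mki67, Top2a, Ccna2, Cdk1 and Pcna the triangles of replicate 3 stand above the other arrays at every time, in Traip the replicates lie together and the 3 arrays of MEF2-VP16-ER at 2.5 h (170.3 to 208) are the lowest, and in Hmmr both patterns are small.

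The other 38 genes did not pass the test in any comparison between constructs or times, and the way their values leaned with 4OHT differed between replicates. From 0 h to 2.5 h with MEF2-VP16-ER the median of the 40 genes was 0.15 (-0.0034 over all probe sets), with 34 of 40 above 0. Within replicate 1 that median was -0.05 with 9 of 40 above 0, within replicate 2 it was 0.01 with 23, and within replicate 3 it was 0.55 with 38. The array of MEF2-VP16-ER at 0 h in replicate 3 was the lowest of its 6 in 36 of 40 genes, as in 18.4% of all probe sets. Without that array the median was 0.0076 with 20 of 40 above 0, and without replicate 3 it was -0.02 with 16 of 40. That array was singled out for its low values, so its removal lowers this median by construction. Over 9 fits that leave out arrays the median ran from -0.02 to 0.31.

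Leaving out the same array moved the other medians too. At 0 h the MEF2-VP16-ER neurons lay below control neurons, with a median of -0.09 and 13 of 40 genes above 0. Within replicates 1, 2 and 3 the medians were -0.08, 0.15 and -0.29, and without that array the median was 0.03 with 28 above 0. Over 9 fits that leave out arrays it ran from -0.20 to 0.03. None of the 40 genes was called at 0 h, against 0.00322% of all probe sets (3 of 40 at an unadjusted p under 0.05). The induction at 2.5 h had a median of 0.07 with 26 of 40 above 0, from -0.15 in replicate 1 to 0.31 in replicate 3. Without the 0 h array it was -0.08 with 8 above 0. Over 15 fits that leave out arrays it ran from -0.08 to 0.17.

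**Figure D5:**
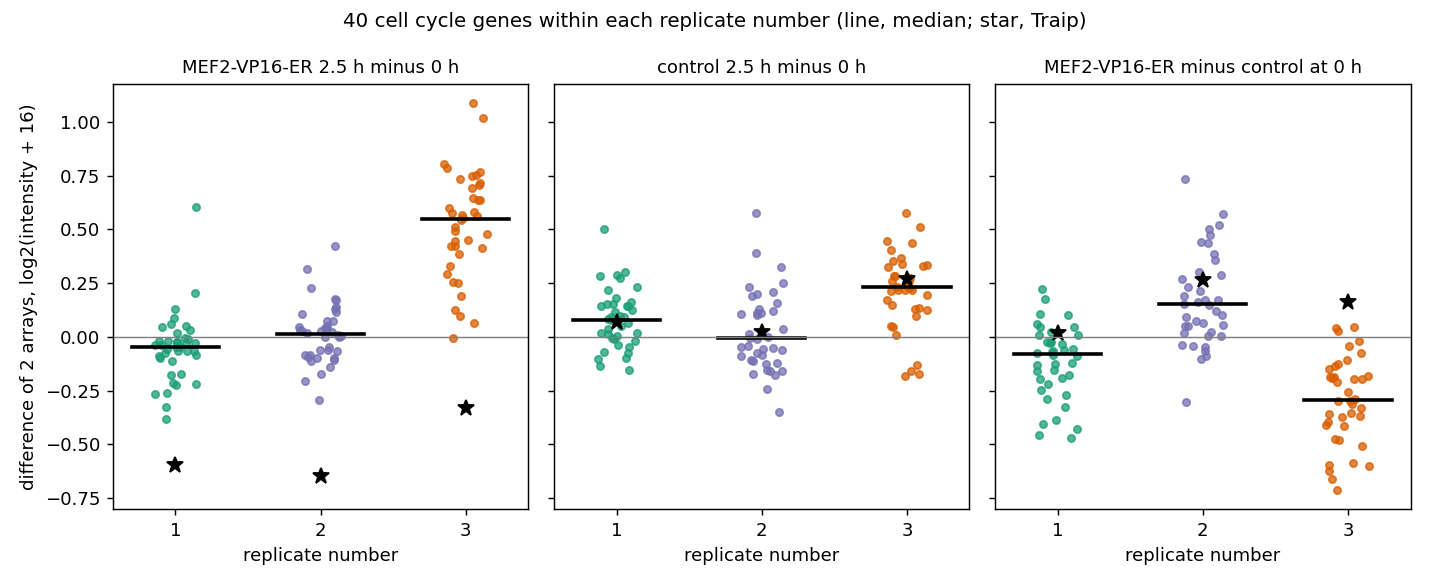
Each dot is the difference of 2 arrays of the same replicate number in log2(intensity + 16) for 1 of the 40 genes, bars are medians over the 40 genes, and the star is Traip. From 0 h to 2.5 h with MEF2-VP16-ER the median is -0.05, 0.01 and 0.55 in replicates 1, 2 and 3, in control neurons it is 0.08, -0.0075 and 0.23, and between constructs at 0 h it is -0.08, 0.15 and -0.29.

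In control neurons 4OHT changed 0 of 40 cell cycle genes at 2.5 h by limma, against 0.00322% of all probe sets (3 of 40 at an unadjusted p under 0.05). The values of 36 of 40 were above 0, with a median of 0.09 and medians of 0.08, -0.0075 and 0.23 within replicates 1, 2 and 3. Kif11 had the largest value, 0.38 (95% interval 0.03 to 0.73, adjusted p = 0.999). At 1 h 0 of 40 were called in control neurons, against 0% of all probe sets (1 of 40 at an unadjusted p under 0.05), with a median of -0.03. With MEF2-VP16-ER at 1 h 0 of 40 were called, against 0.187% of all probe sets (2 of 40 at an unadjusted p under 0.05), with a median of 0.06 and 27 above 0. Hmmr was highest there at 0.31 (adjusted p = 0.340). The induction at 1 h had 0 of 40 called, against 0.029% of all probe sets (1 of 40 at an unadjusted p under 0.05), with a median of 0.07.

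For the markers of dividing cells the intervals stayed wide. The induction of Mki67 at 2.5 h was 0.10 (95% interval -0.55 to 0.74), that of Top2a 0.24 (-0.34 to 0.81) and that of Cdk1 0.20 (-0.28 to 0.68), on the log2 scale. The residual SD of the 40 genes had a median of 0.16 with the block and 0.43 without it, against 0.09 and 0.10 over all probe sets. Tyms had the second lowest induction, -0.31 (95% interval -0.61 to -0.02, adjusted p = 0.553).

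Outside the 40 genes, 0 of the 55 other mitotic and 0 of the 51 other replication genes changed at 2.5 h in MEF2-VP16-ER neurons by limma, against 2.33% of all probe sets. At an unadjusted p under 0.05 there were 4 and 2. Counts of 0 in lists of this size are near that share and are not a result about these genes. Mycn, a MYC family gene that drives growth and division, fell. Mycn read 2043, 2546 and 2305 in control neurons at 0 h, 2067, 2966 and 2379 at 1 h and 1851, 2399 and 1701 at 2.5 h. With MEF2-VP16-ER it read 2116, 2762 and 2355 at 0 h, 1576, 1976 and 1545 at 1 h and 1196, 1546 and 1157 at 2.5 h. Each replicate fell at both times with MEF2-VP16-ER. The change at 2.5 h was -0.89 ± 0.07 (adjusted p = 1.52e-06, without the block 0.0149) and that at 1 h -0.50 ± 0.07 (adjusted p = 0.00279, without the block 1.00).

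The induction of Mycn was -0.67 ± 0.09 at 2.5 h (adjusted p = 0.00157, without the block 0.682) and -0.60 ± 0.09 at 1 h (adjusted p = 0.0498, without the block 0.996). The call at 1 h was kept in 2 of 15 fits that leave out arrays, and that at 2.5 h was lost without replicate 1 (adjusted p = 0.0539) or 2 (0.139). Of 11 alternatives of the processing, the call at 1 h was lost in 6, quantile normalization among them (limma adjusted p = 0.330), and that at 2.5 h in 1. In the same list cyclin D1 (Ccnd1), of G1, fell by 0.49 ± 0.11 in MEF2-VP16-ER neurons at 2.5 h (adjusted p = 0.0227, without the block 0.562), and Wee1, the kinase that holds Cdk1 inactive, rose by 0.37 ± 0.08 (adjusted p = 0.0176, without the block 0.363), so that 3 of 33 changed, against 2.33% of all probe sets. Of 18 CDK inhibitors and brakes 2 rose, against 1.33% of all probe sets: Gadd45b, a stress-induced gene, by 0.92 ± 0.12 (adjusted p = 0.000262, without the block 0.0111) and the antiproliferative gene Tob1 by 0.39 ± 0.08 (adjusted p = 0.0134, without the block 0.158). Of 9 fits that leave out arrays, Gadd45b kept its call in 9, Ccnd1 and Tob1 in 3 each and Wee1 in 2. Beyond the change in control neurons none of these 4 passed the test: the induction at 2.5 h was -0.23 ± 0.15 for Ccnd1 (adjusted p = 0.789), 0.34 ± 0.11 for Wee1 (0.281), 0.69 ± 0.17 for Gadd45b (0.0758) and 0.28 ± 0.11 for Tob1 (0.468). Ccnd1 was at -0.26 ± 0.11 in control neurons (adjusted p = 0.999). At 2.5 h alone, with any 0 h difference left in, Gadd45b was higher than in control neurons by 0.73 (limma adjusted p = 0.00163). Tob1 was higher there by 0.52 (adjusted p = 0.00109), and Ccnd1 and Wee1 were not called. Of 11 alternatives of the processing, this comparison included, a call was gained in 4 for Gadd45b and in 1 each for Wee1 and Tob1.

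Of the cell type markers, 1 of 11 progenitor, 1 of 12 oligodendrocyte and precursor and 1 of 16 neuron markers were called at 2.5 h in MEF2-VP16-ER neurons, all lower, against 0.999% of all probe sets. The medians of these lists were -0.02, -0.03 and -0.02. Sox2 (-0.63 ± 0.07, adjusted p = 0.000101, without the block 0.273) and Olig2 (-0.42 ± 0.09, adjusted p = 0.0196, without the block 0.983), transcription factors of progenitors and of the oligodendrocyte lineage, fell. The neuronal factor Neurod6 fell by 0.66 ± 0.08 (adjusted p = 0.000175, without the block 0.0158). For Sox2, Olig2 and Neurod6 these are changes within MEF2-VP16-ER neurons, and their change in control neurons and their induction are not given here. By limma 0 astrocyte, microglia, fibroblast or endothelial markers were called at 2.5 h, against 2.33% of all probe sets in either direction (1 astrocyte and 1 microglia marker at an unadjusted p under 0.05). The part of these cell types in the changes of Traip and Hmmr was not tested.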

How the data were processed

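RNA of 18 samples was hybridised as biotin-labelled cRNA to Affymetrix arrays, per the labels' protocols. The deposited values are linear intensities, 1 per probe set and array. The authors' background correction and normalization of these intensities were not given in the sources used here. They lay between 19.0 and 29640, with array medians of 190.4 to 197, and were used as deposited. No detection calls were used, so whether a dim probe set was above background is unknown, and the number of arrays limits the precision.

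After 57 control probe sets were left out, log2(intensity + 16) of 31042 probe sets was fitted with limma 3.58.1 in R 4.3.3 (lmFit, eBayes, 6 group means plus the replicate number as a block). P-values were adjusted by Benjamini-Hochberg over all probe sets. Symbols came from the platform annotation: 20826 probe sets had 1 symbol, 436 several and 9780 none, and 20758 of the first kind were found in RefSeq by Entrez ID. A gene was read from the probe set with the highest mean log2 value. The fit was tested on simulated data. Figures were drawn with matplotlib 3.10.9.

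The members and lists were chosen with earlier results of these data known. All 40 genes could be named. Per-array values were given for those called between groups, for the 6 with the smallest p between replicate numbers, and for Mki67, Top2a, Cdk1, Ccnb1, Mcm2, Pcna, Traip and E2f1. In the other cell cycle lists at most 4 called genes per comparison were named.

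Of 45 pairs of arrays with the same replicate number, 44 had residual correlations above 0.1 (lowest 0.068, highest 0.79), and 18 of 18 arrays were closest to an array of their own number. Replicate numbers come from the titles. No 2 arrays held identical values. Alternatives changed the block, normalization, pseudocount, filter, probe set choice, moderation, groups fitted and arrays.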

Additional observations from a re-analysis of the deposited data

Results flagged for a closer look

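Among the 40 genes and the 4 lists of other cell cycle genes, the change with 4OHT differed between MEF2-VP16-ER and control neurons in 2 genes by a test of the difference itself in the limma fit. Over all probe sets 0.937% were called at 2.5 h and 0.029% at 1 h. For Traip the difference at 2.5 h was -0.64 ± 0.12 log2 units (SE, adjusted p = 0.0134), with 3 of 3 replicates below 0. For Mycn it was -0.60 ± 0.09 at 1 h (adjusted p = 0.0498) and -0.67 ± 0.09 at 2.5 h (adjusted p = 0.00157). Without the replicate block neither call on Mycn held (adjusted p = 0.996 and 0.682), and the call at 1 h was kept in 2 of 15 fits that leave out arrays. Of 11 alternatives of the processing, the call at 1 h was lost in 6. Among these were quantile normalization (limma adjusted p = 0.330), median centring (0.0585) and pseudocounts of 1 (0.0564) and 64 (0.0660). The call on Traip was kept in 11 of 15 such fits and was lost without replicate 1, without replicate 2 and without replicate 3.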

How the results depend on the processing

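Of 2315 values of single genes under alternatives, 2243 kept their side of the threshold, 65 lost the call and 7 gained one. Direction was compared only for values called in the main fit or the alternative, and 0 of those reversed. Some uncalled values did change sign, as the induction of Mki67 at 2.5 h did, from 0.10 to -0.07. Without the replicate block the count at 2.5 h in MEF2-VP16-ER neurons went from 2 to 1 (Traip), and over all probe sets from 724 to 245. It was also 1 with the mean over a gene's probe sets and with the contrast's own groups. With only probe sets above the median level it was 1 too, but that filter left Hmmr out of the fit. The count across the 6 groups went from 1 to 2 with 1 probe set per gene and with trend and robust moderation. Between replicate numbers 25 of the 26 genes above the median level differed, from 38 of 40. Leaving out arrays gave 0 to 2 genes across the 6 groups, 1 to 2 at 2.5 h and 0 to 1 at 1 h in MEF2-VP16-ER neurons, 0 to 1 for the induction at 2.5 h and 0 to 38 between replicate numbers, 0 being without replicate 3. The cause was not tested. The other comparisons stayed at 0 under every alternative run. The replicate numbers could not be tested without the block. With 3 arrays a group and an unknown background, small changes of dim genes such as Bub1b are not resolved.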
